A study of Mus musculus with 51 samples.

Results

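The neutrophil granule and maturation genes examined here are 35 genes chosen by name, which neutrophils and their precursors switch on in sequence as they mature in the bone marrow. They were sorted into 6 genes of the primary granules and of early precursors, 11 genes of the secondary and gelatinase granules, and 18 late genes for surface receptors and effector proteins. Of these, 34 had a row among the 23358 entries of the expression table of the vitamin C (VitC) femurs, in which Ly6g was not listed, and all 35 were among the 25938 genes of the table of the Tet femurs. All 34 and all 35 passed the filters on low values.

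The VitC femurs were from C57BL/6 mice of 20 weeks in 3 groups of 3 libraries. One group was labelled WT. The other two groups carried the Gulotm1Mae allele, which removes the enzyme that makes VitC, and drank water with 3.3 g/L VitC for all 20 weeks (VitC+) or for 15 weeks followed by 5 weeks without it (VitC+/-). The Tet femurs were from mice of 11 weeks in 4 groups of 3 libraries: Ctrl mice with wild-type Tet alleles and the Prrx1-Cre transgene, and Tet1 cKO, Tet2 cKO and Tet1/2 cKO mice, whose floxed Tet1, Tet2 or both were cut by the same transgene. Prrx1-Cre acts in the limb mesenchyme, which forms bone and cartilage cells and not blood cells. In the study's methods the femurs were flushed and minced before RNA extraction, and each library was from its own animal. The amount of marrow left in each femur is not given in the sources used here.

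Neutrophils arise from granulocyte-monocyte progenitors. At the promyelocyte stage they fill primary granules with myeloperoxidase and serine proteases, at the myelocyte stage they fill secondary granules with lactoferrin, lipocalin and cathelicidin, and as they mature they add gelatinase granules, chemokine and formyl peptide receptors and the calcium-binding proteins S100A8 and S100A9. The factors C/EBPα, C/EBPε, PU.1 and GFI1 drive the steps of this programme, and the mature cells are held in the marrow and released from it by CXCR4 and CXCR2.

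Promoters are shown for members called lower in VitC+/- than in WT femurs, as examples picked after their letters were seen: 1 primary gene (Elane, neutrophil elastase), 2 secondary genes (Ltf and Mmp8) and 2 late genes (S100a8 and Fpr2). Each run is the 250 bases before the gene's start in the RefSeq annotation of GRCm38.p6, 5′ to 3′ on the strand of the gene. Capitals mark the letters TTNNGNAA, a loose form of the C/EBP site, and GAGGAA, the core of the PU.1 site, each read on both strands.
Elane, chr10:79886062-79886311, plus strand: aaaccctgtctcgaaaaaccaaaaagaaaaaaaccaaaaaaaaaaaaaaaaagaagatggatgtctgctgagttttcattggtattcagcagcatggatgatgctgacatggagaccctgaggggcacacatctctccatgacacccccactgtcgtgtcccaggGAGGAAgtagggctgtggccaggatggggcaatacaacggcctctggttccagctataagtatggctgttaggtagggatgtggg
Ltf, chr9:111019042-111019291, plus strand: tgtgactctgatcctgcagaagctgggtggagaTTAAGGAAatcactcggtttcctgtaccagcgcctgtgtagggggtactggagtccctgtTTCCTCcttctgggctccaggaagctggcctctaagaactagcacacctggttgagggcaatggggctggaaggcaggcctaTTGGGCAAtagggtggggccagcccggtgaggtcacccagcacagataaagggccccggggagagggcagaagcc
Mmp8, chr9:7558179-7558428, plus strand: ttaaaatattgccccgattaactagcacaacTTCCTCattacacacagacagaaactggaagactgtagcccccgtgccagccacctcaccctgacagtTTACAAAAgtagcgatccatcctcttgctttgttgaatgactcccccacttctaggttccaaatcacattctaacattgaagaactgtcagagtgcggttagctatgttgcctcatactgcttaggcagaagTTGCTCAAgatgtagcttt
S100a8, chr3:90668821-90669070, plus strand: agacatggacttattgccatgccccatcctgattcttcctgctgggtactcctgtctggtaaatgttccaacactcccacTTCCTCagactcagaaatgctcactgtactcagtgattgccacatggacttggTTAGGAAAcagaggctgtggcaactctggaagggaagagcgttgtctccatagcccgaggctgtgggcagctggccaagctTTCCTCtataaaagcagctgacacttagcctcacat
Fpr2, chr17:17887574-17887823, plus strand: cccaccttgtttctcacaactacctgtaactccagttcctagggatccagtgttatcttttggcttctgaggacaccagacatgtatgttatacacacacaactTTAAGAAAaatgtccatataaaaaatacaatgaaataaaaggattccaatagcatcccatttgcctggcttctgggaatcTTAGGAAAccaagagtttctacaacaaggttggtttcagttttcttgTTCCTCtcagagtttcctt

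A RefSeq promoter was found for 32 of the 35 members. Of these, 21 (65.6%) held TTNNGNAA, against 40.4% of 26794 genes searched over the same length. GAGGAA was held by 20 members (62.5%), against 26.1% of all genes, and both by 13 members (40.6%), against 10.3%. In Elane the GAGGAA begins 85 bases before the start, and in its neighbour Prtn3, which encodes another serine protease of the same granule, 95 bases before. Of the other members called lower in VitC+/- than in WT, Camp, Cybb, Ncf1 and Padi4 held neither. These are matches of letters only, and binding was not measured in these data.

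The libraries of the VitC femurs held about 31.2 M to 47.5 M reads, as estimated from the steps between low values, except WT replicate 1 with 7.61 M reads. The Tet libraries held 28.6 M to 49.8 M reads. Gulo, a gene of the liver, was below 1 RPKM in all 9 VitC femurs: its values were 0.537, 0.442 and 0 for WT, 0.238, 0.0335 and 0.0268 for VitC+ and 0.0123, 0.0134 and 0.0177 for VitC+/-. Gulo was also at 0 in 10 of the 12 Tet femurs, so its level in a femur does not check the labels. WT replicate 3 and VitC+ replicate 1 were furthest from the rest of their groups in Gulo, and counts are also given without them, a choice made after seeing the data. In the Tet femurs, total Tet1 and Tet2 counts were not called lower in their own knockouts (log2 differences of 0.64, adjusted p = 0.9998, for Tet1 in Tet1 cKO and -0.16, adjusted p = 0.9998, for Tet2 in Tet2 cKO, and of 0.13, adjusted p = 0.876, and 0.01, adjusted p = 0.989, in Tet1/2 cKO). Counts over the whole gene were given here, not over the floxed exons.

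The flushed femurs held high levels of neutrophil transcripts. Levels below are RPKM (reads scaled to transcript length and library size) after a further scaling of each library to the median ratio of its genes, with 3 libraries per group in replicate order. Averaged over the 9 VitC femurs they ran from 6.93 RPKM for Trem1, a receptor that amplifies inflammation, to 17158 RPKM for S100a9. The 2 subunits of calprotectin, S100a8 and S100a9, alone made up 9.30 to 13.9% of the summed RPKM for WT, 6.32 to 9.55% in VitC+ and 1.62 to 5.20% in VitC+/-. The VitC+/- range lay below both of the other ranges. The 34 members together made up 13.9 to 20.9%, 9.18 to 14.2% and 3.11 to 8.77% in these groups.

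**Figure D1:**
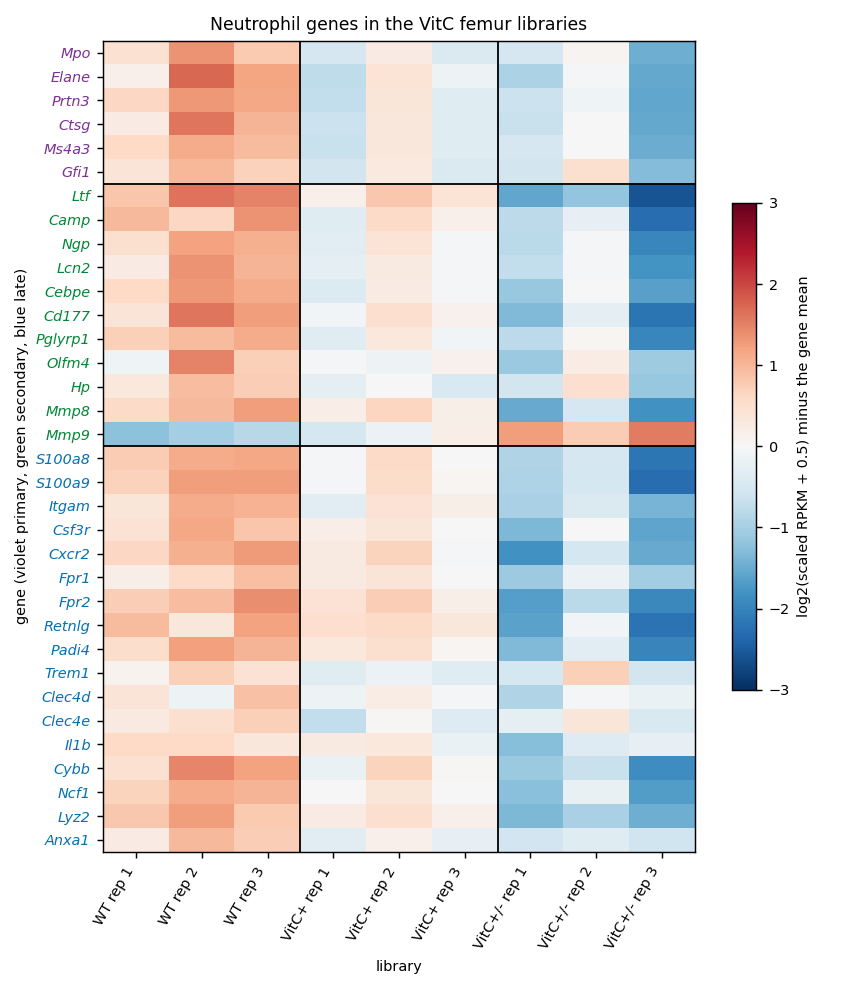
Heat map of the 34 listed members (rows, by class) in the 9 VitC femur libraries (columns), coloured by log2(scaled RPKM + 0.5) minus the mean of the gene over the 9 libraries. Most members were highest in WT replicates 2 and 3 and lowest in VitC+/- replicate 3, while Mmp9 was highest there.

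After 5 weeks without VitC, the members called lower than in the VitC+ femurs were all secondary or late genes. In limma, fitted over all genes with an adjusted p under 0.05 as the threshold, 10 of 34 members were lower in VitC+/- than in VitC+, against 7.52% of the 12586 genes tested, and 1 member, Mmp9, was higher, against 5.93% of all genes. None of the 6 primary genes passed the threshold, while 2 of 11 secondary genes and 8 of 17 late genes were called lower. The log2 difference was below 0 for 31 of 34 members, against 48.2% of all genes. The median log2 difference was -0.47 over the primary genes, -0.86 over the secondary genes and -1.17 over the late genes, and 0.02 over all genes. Whether the classes differed from each other was not tested. In such bulk samples, fewer neutrophils and less RNA per neutrophil cannot be told apart.

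**Figure D2:**
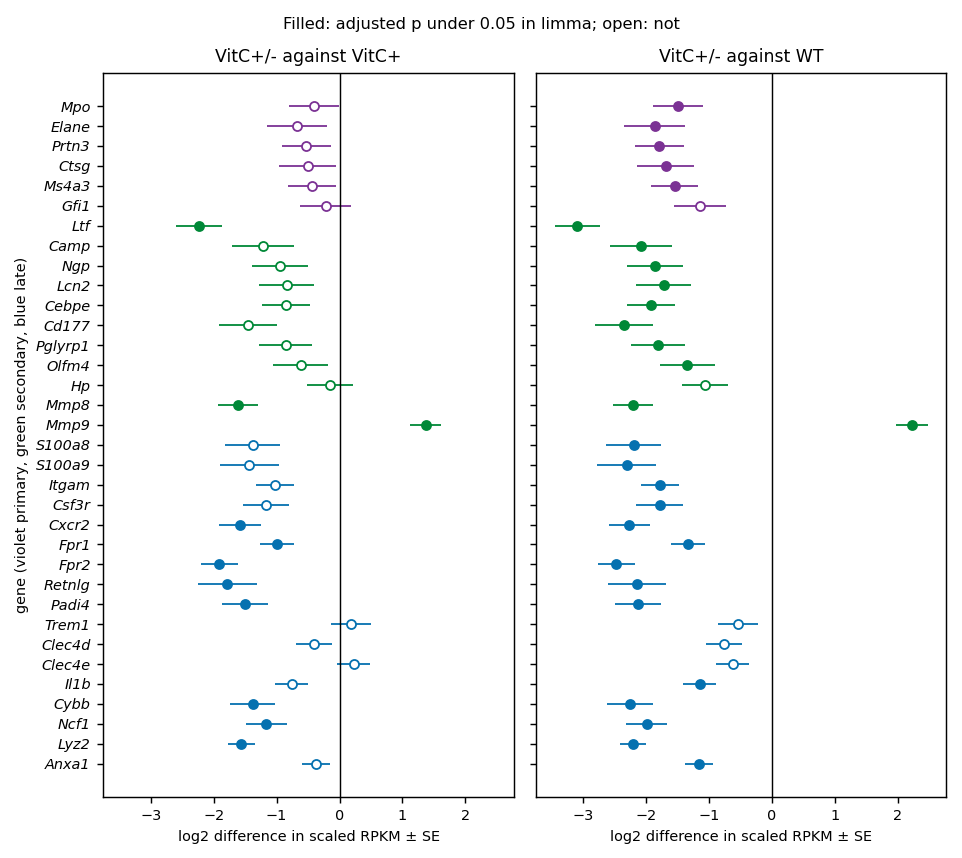
Log2 difference ± SE (limma) of each member in VitC+/- against VitC+ (left) and against WT (right), coloured by class, with filled points for an adjusted p under 0.05. On the left no primary gene is filled, and on the right 28 members are filled below 0, with Mmp9 above 0 in both.

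Among the primary genes, the serine proteases Prtn3 and Elane had the highest means over the 9 libraries, though Mpo was above Elane in all 3 VitC+/- libraries. Prtn3 stood at 1332, 2149 and 1935 for WT, 523, 1115 and 683 for VitC+ and 563, 792 and 298 for VitC+/-. Elane stood at 629, 1876 and 1276 for WT, 334, 753 and 507 for VitC+ and 293, 544 and 195 for VitC+/-. For both, VitC+/- replicate 3 was below all VitC+ libraries and replicate 2 was inside their range, and the log2 differences were -0.53 (SE 0.39, adjusted p = 0.393) for Prtn3 and -0.68 (SE 0.48, adjusted p = 0.372) for Elane. Mpo (myeloperoxidase), Ctsg (cathepsin G), Ms4a3, a membrane protein of granulocyte-monocyte progenitors, and Gfi1, a repressor that granulocyte precursors need, had log2 differences of -0.41, -0.51, -0.44 and -0.22, and in all 6 primary genes the VitC+/- and VitC+ libraries overlapped.

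Ltf encodes lactoferrin, the iron-binding protein of secondary granules, and was the member with the largest fall. Its level was 809.6, 1412 and 1283 for WT, 504, 793 and 606 for VitC+ and 154, 202 and 75.2 for VitC+/-. All VitC+/- libraries were below all VitC+ libraries, and the fall was 4.69-fold, a log2 difference of -2.23 (SE 0.36, adjusted p = 0.00734). Mmp8, the collagenase of neutrophils, was measured at 62.4, 83.0 and 100.2 for WT, 48.3, 65.3 and 47.6 for VitC+ and 14.4, 29.3 and 11.5 for VitC+/-. Again the groups did not overlap, and Mmp8 was 3.07-fold lower in VitC+/- than in VitC+ (log2 difference -1.62, SE 0.32, adjusted p = 0.0144).

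The most abundant secondary genes did not pass the threshold. Camp, the cathelicidin precursor, was at 6269.6, 4929.9 and 8171 for WT, 2497, 4752 and 3527 for VitC+ and 1868, 2708 and 651 for VitC+/-. Ngp, neutrophilic granule protein, was at 2955, 4871 and 4467 for WT, 1687, 2803 and 2076 for VitC+ and 1213, 2049.9 and 544 for VitC+/-. For both, VitC+/- replicate 2 reached into the VitC+ range and VitC+/- replicate 3 was the lowest library, with log2 differences of -1.22 (SE 0.49, adjusted p = 0.125) and -0.95 (SE 0.45, adjusted p = 0.178). Cd177, a surface protein of neutrophils, did not overlap between the groups, at -1.45 (adjusted p = 0.0657). The remaining members of the class were Cebpe, which encodes C/EBPε (-0.85), the siderophore-binding Lcn2 (-0.84), the peptidoglycan-binding Pglyrp1 (-0.86), Olfm4 (-0.62) and haptoglobin, Hp (-0.15), with adjusted p-values of 0.157 to 0.815.

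Mmp9, gelatinase B, stood against the other members. It is stored in gelatinase granules and is also a main protease of osteoclasts, the bone-resorbing cells. Its level was 148, 173 and 196 for WT, 241, 311 and 399.6 for VitC+ and 839, 593 and 1038 for VitC+/-. The 3 groups did not overlap, and Mmp9 was 2.58-fold higher in VitC+/- than in VitC+ (log2 difference 1.37, SE 0.25, adjusted p = 0.0111) and 4.68-fold higher than in WT (2.23, SE 0.25, adjusted p = 0.000632). Of the 9 osteoclast genes listed, the summed level ran over 618 to 689 RPKM for WT, 1645 to 2185 for VitC+ and 2341 to 5459 in VitC+/-. Among them, 4 were called higher in VitC+/- than in VitC+ and 8 were called higher than in WT, including Ctsk, the cathepsin of osteoclasts, at 1.29 (adjusted p = 0.0210) and 2.84 (adjusted p = 0.000421). The part of osteoclasts in the Mmp9 values was not tested.

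**Figure D3:**
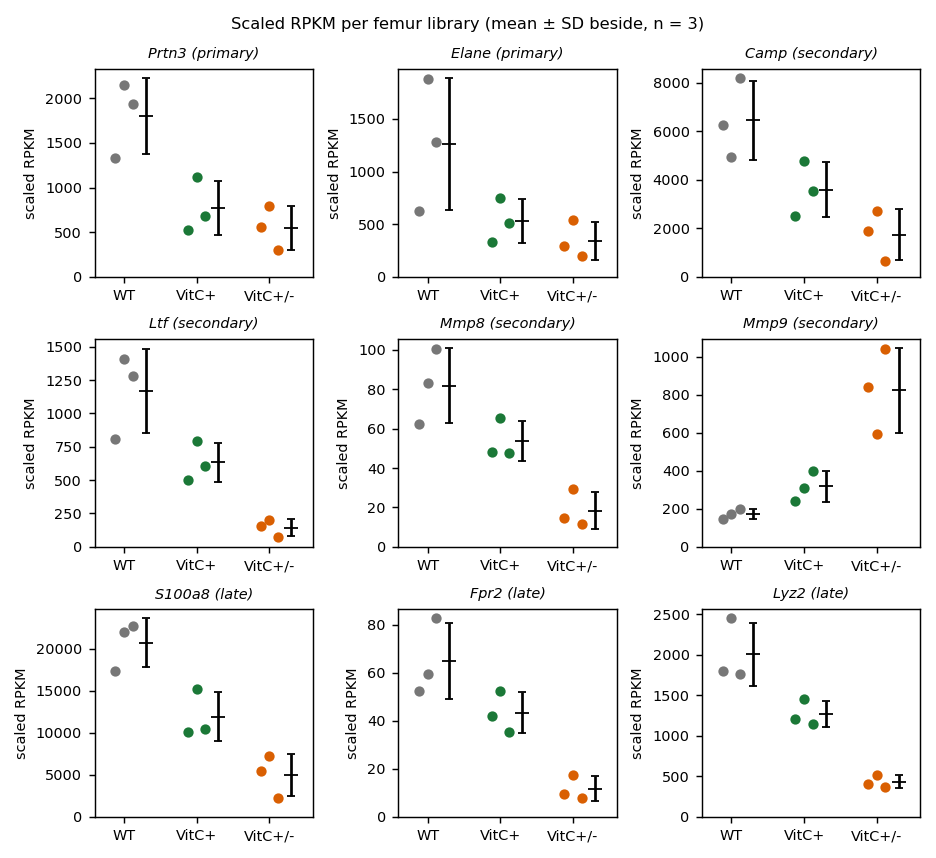
Scaled RPKM of 9 members in each VitC femur library (points, 3 per group), with the mean ± SD beside them on axes that start at 0. Ltf, Mmp8, Fpr2 and Lyz2 in VitC+/- lie below all other libraries, Mmp9 lies above them, and Prtn3 and Elane in VitC+/- overlap VitC+.

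The late genes held most of the calls. Fpr2, a receptor for formylated bacterial peptides, was at 52.3, 59.7 and 82.7 for WT, 42.1, 52.6 and 35.4 for VitC+ and 9.62, 17.6 and 7.88 for VitC+/-. It fell 3.76-fold against VitC+ (log2 difference -1.91, SE 0.29, adjusted p = 0.00587), and its neighbour and relative Fpr1, at 10.7, 13.9 and 17.8 for WT, 11.3, 12.2 and 9.18 for VitC+ and 4.06, 8.09 and 4.23 for VitC+/-, fell 1.99-fold (-0.99, SE 0.27, adjusted p = 0.0420). Reads of these close paralogs may be split between them by the counting.

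Cxcr2, the chemokine receptor that draws mature neutrophils from the marrow, was at 27.3, 37.3 and 43.3 for WT, 21.3, 28.5 and 17.1 for VitC+ and 4.67, 12.03 and 5.87 for VitC+/-. All VitC+/- libraries were below the others, with a log2 difference of -1.58 (SE 0.33, adjusted p = 0.0172) against VitC+. Retnlg, a resistin-like protein of neutrophils, was at 753, 498 and 909 for WT, 557, 583 and 496 for VitC+ and 127, 368 and 83.6 for VitC+/- (-1.78, SE 0.46, adjusted p = 0.0364). Padi4, which citrullinates histones when neutrophils release their chromatin, was at 21.2, 34.7 and 29.8 for WT, 18.3, 20.4 and 15.103 for VitC+ and 5.53, 11.5 and 3.31 for VitC+/- (-1.50, SE 0.36, adjusted p = 0.0298). In each of these genes VitC+/- replicate 2 was the highest of its group.

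Both called subunits of the NADPH oxidase, the enzyme of the oxidative burst, were also lower. Cybb was at 79.6, 162 and 135 for WT, 50.2, 92.7 and 59.7 for VitC+ and 26.3, 36.6 and 15.7 for VitC+/- (-1.38, SE 0.36, adjusted p = 0.0369). Ncf1 was at 186, 255 and 239 for WT, 117, 150.1 and 115 for VitC+ and 49.1, 100.3 and 36.0 for VitC+/- (-1.16, SE 0.33, adjusted p = 0.0458). The Ncf1 call was lost under 5 of 9 other settings, with adjusted p-values up to 0.0945, and kept in 3 of 9 fits that left out 1 library. Fpr1, Retnlg and Cybb were also kept in only 3 of these 9 fits, Padi4 in 4, Cxcr2 in 6 and Mmp8 in 7. Under the 9 other settings Fpr1 and Cybb were called in 7, and Retnlg and Padi4 in 8. Lyz2, the lysozyme of myeloid cells, had the lowest standard error of the called genes, at 1797, 2455 and 1763 for WT, 1202, 1452 and 1143 for VitC+ and 403, 519.7 and 371 for VitC+/-, and fell 2.95-fold (-1.56, SE 0.21, adjusted p = 0.00371). Cybb, Ncf1 and Lyz2 are used by monocytes and macrophages too, and reads of Lyz2 can be shared with its close copy Lyz1.

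S100a8 and S100a9, the most abundant members, were just outside the threshold. S100a8 was at 17383, 22049 and 22781 for WT, 10060, 15263 and 10404 for VitC+ and 5493, 7219.8 and 2268 for VitC+/-. S100a9 was at 21977, 32472 and 32829 for WT, 13119, 20186 and 14323 for VitC+ and 7187, 9519.7 and 2807 for VitC+/-. In both genes all VitC+/- libraries were below all VitC+ libraries, with log2 differences of -1.38 (SE 0.43, adjusted p = 0.0638) and -1.43 (SE 0.47, adjusted p = 0.0707). Csf3r, the receptor for the growth factor G-CSF, Itgam, the integrin CD11b, and the cytokine Il1b also did not overlap, at -1.17, -1.02 and -0.76 (adjusted p = 0.0645, 0.0535 and 0.0839). Anxa1, annexin A1, had a small gap of -0.37, and the receptors Clec4d, Clec4e and Trem1 overlapped, at -0.40, 0.22 and 0.18.

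Counting separation alone, 17 of 34 members had all VitC+/- libraries below all VitC+ libraries, against 19.1% of all genes: 14 late genes, 3 secondary genes and no primary gene. Mmp9 was 1 of the 21.4% of genes with all VitC+/- libraries above. Within each library, the median log2 level of the late genes minus that of the primary genes was -2.70, -3.42 and -3.29 in VitC+ and -4.29, -3.73 and -3.80 in VitC+/-, so that the late genes stood lower beside the primary genes in all VitC+/- libraries. In the libraries labelled WT the same difference was -3.29, -4.10 and -3.38, which overlaps both groups.

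The number of members called lower depended on single libraries, and so did the number over all genes. It was 4, 3 and 5 without VitC+ replicate 1, 2 or 3, 3, 16 and 5 without VitC+/- replicate 1, 2 or 3, while 416, 325, 338, 316, 777 and 728 of all genes were called lower in these fits, against 946. The count was 6 without WT replicate 3, with 654 of all genes, and 3 without WT replicate 3 and VitC+ replicate 1 together, with 169. Ltf, Fpr2 and Lyz2 were called in all these fits, and Mmp9 in all but the last. The direction held for 28 to 33 of 34 members. With all genes kept whatever their level, 5 members were called lower, and so were 829 of 19717 genes.

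Against the libraries labelled WT, VitC+/- femurs were lower in members of all 3 classes. In limma 28 of 34 members were lower than in WT, against 15.9% of all genes, and Mmp9 was higher, against 15.3% of all genes. These were 5 of 6 primary, 9 of 11 secondary and 14 of 17 late genes, and the medians of the classes were -1.62, -1.86 and -1.99, against 0.01 over all genes. In 27 members all VitC+/- libraries were below all WT libraries, against 21.3% of all genes, and Mmp9 was among the 21.4% above. The count was 21 without WT replicate 3 and 14 without WT replicate 3 and VitC+ replicate 1 together. In these 2 fits 1140 and 829 of all genes were called lower, against 2003. The primary calls rested on single libraries. Only 2 primary genes were called without VitC+/- replicate 1, without WT replicate 2 or without WT replicate 3, and 3 without VitC+/- replicate 3. In these fits 1255, 1940, 1140 and 1535 of all genes were called lower. Without WT replicate 3 and VitC+ replicate 1 together, 1 primary gene was called.

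Ltf was 8.54-fold lower than in WT (log2 difference -3.09, SE 0.36, adjusted p = 0.000763), Fpr2 5.57-fold (-2.48, SE 0.29, adjusted p = 0.000763) and Lyz2 4.64-fold (-2.21, SE 0.21, adjusted p = 0.000350). Calprotectin was called here, with S100a8 at -2.20 (SE 0.43, adjusted p = 0.00598) and S100a9 at -2.31 (SE 0.47, adjusted p = 0.00658), and so were the abundant secondary genes Camp (-2.09, SE 0.49, adjusted p = 0.0126) and Ngp (-1.86, SE 0.45, adjusted p = 0.0135). Among the primary genes Prtn3 was 3.46-fold lower (-1.79, SE 0.39, adjusted p = 0.00902) and Elane 3.64-fold (-1.86, SE 0.48, adjusted p = 0.0181). With no filter on low values the calls of S100a8 (adjusted p = 0.184), S100a9 (adjusted p = 0.248) and Camp (adjusted p = 0.0573) were lost. Camp and Ngp were not called without WT replicate 3, and S100a8 and S100a9 were not called without WT replicate 3 and VitC+ replicate 1 together. Elane was not called without VitC+/- replicate 1 or 3 or without WT replicate 2 or WT replicate 3. The 5 members that did not pass were Gfi1 (-1.15), Hp (-1.06), Trem1 (-0.54), Clec4d (-0.76) and Clec4e (-0.63).

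No member passed the threshold between WT and VitC+, and none of the 12586 genes did (0%), although 2769 genes and 18 members had an unadjusted p under 0.05. The log2 difference was above 0 in WT for 33 of 34 members, against 54.7% of all genes, and in 20 members all WT libraries were above all VitC+ libraries, against 14.2%. By class, the median was 1.15 over the primary genes, 0.88 over the secondary genes and 0.68 over the late genes. Prtn3 had a log2 difference of 1.27 (SE 0.39, adjusted p = 0.128), Elane of 1.19 (SE 0.48, adjusted p = 0.196), Ltf of 0.87 (SE 0.36, adjusted p = 0.206) and Retnlg of 0.36 (SE 0.46, adjusted p = 0.683). The comparisons share libraries, so their values are not independent of each other. With replicate number as a block, 6 members were called, 5 higher and Mmp9 lower in WT, while 184 of all genes were called higher and 590 lower. Without WT replicate 1 Anxa1 was called, beside 96 of all genes higher and 508 lower. Lists of other cell types went both ways. Below 0 in WT against VitC+ were 12 of 12 osteoblast and osteocyte genes (median -1.86), 9 of 9 osteoclast genes (-1.38) and 7 of 7 adipocyte genes (-1.10), none of them called. Above 0 were 7 of 8 skeletal muscle genes (0.30), 6 of 10 eosinophil, basophil and mast cell genes (0.08) and 3 of 5 stem and progenitor genes (0.34), none called. Of other blood cells, 7 of 8 erythroid (-0.10), 8 of 10 B-cell precursor (-0.23) and 8 of 11 monocyte and macrophage genes (-0.31) were below 0, none called. The part of these cell types in the neutrophil values was not tested.

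Other neutrophil genes were listed apart from the members. All 19 that were tested had a log2 difference below 0 in VitC+/- against VitC+, with a median of -0.77, and 4 passed, among them Ceacam10, at -2.07 (adjusted p = 0.00133), Hdc, the enzyme that makes histamine, at -1.99 (adjusted p = 0.00555), and Trem3, at -1.61 (adjusted p = 0.0361). Against WT 18 of the 19 were called lower. Between WT and VitC+ all 19 were above 0 in WT (median 0.80), with none called. Of 13 regulators of granulopoiesis tested, 1 was called lower in VitC+/- than in VitC+, Irf8, which steers progenitors to monocytes (-1.02, adjusted p = 0.00521), and 1 higher, Tet2 (0.98, adjusted p = 0.0153). Cebpa, which encodes C/EBPα, and Cebpb were at 0.48 (adjusted p = 0.254) and 0.36 (adjusted p = 0.475). Between WT and VitC+ 11 of the 13 regulators were above 0 in WT (median 0.52), with none called.

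Calls were also made among markers of other cells. Of 11 monocyte and macrophage genes tested, 2 were called lower in VitC+/- than in VitC+ (Ccr2, -1.80, adjusted p = 0.00297, and Cx3cr1, -2.42, adjusted p = 0.000378) and 3 higher, among them Csf1r and Cd14, and their summed level was 471 to 559.7 RPKM in VitC+ and 482 to 611 in VitC+/-. B-cell precursor genes were called lower in 9 of 10, with a summed level of 82.9 to 164 in VitC+ and 14.4 to 27.2 in VitC+/-. Genes of eosinophils, basophils and mast cells were called lower in 3 of 10, with 56.2 to 397 and 23.4 to 34.5. Of 8 erythroid genes 2 were called higher, with 187 to 289.7 and 293 to 413, and none of 5 stem and progenitor genes was called. The summed level of 8 adipocyte genes was 188 to 408 and 321 to 2479.8, and that of 12 osteoblast and osteocyte genes 5575 to 10900.4 and 705 to 4486, of which 5 were called lower. That of 8 skeletal muscle genes was 22.3 to 1225 and 6.21 to 359, with none called. The part of these cell types in the neutrophil values was not tested.

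In the Tet femurs no member passed the threshold in any comparison. Values are normalized counts, which are not divided by gene length, so levels are compared only within a gene. In Tet1/2 cKO 34 of 35 members had a log2 difference above 0 against Ctrl, against 49.2% of all genes, with a median of 0.74 against -0.01 over all genes. The adjusted p-values of the members were 0.723 to 0.947, and none of the 16780 genes tested passed (0%). At an unadjusted p under 0.05 there were 847 genes, of them 3 members. On the reads recovered from 11 libraries, edgeR called no gene, and DESeq2 called 10 genes lower and 1 higher, none of them a member.

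**Figure D4:**
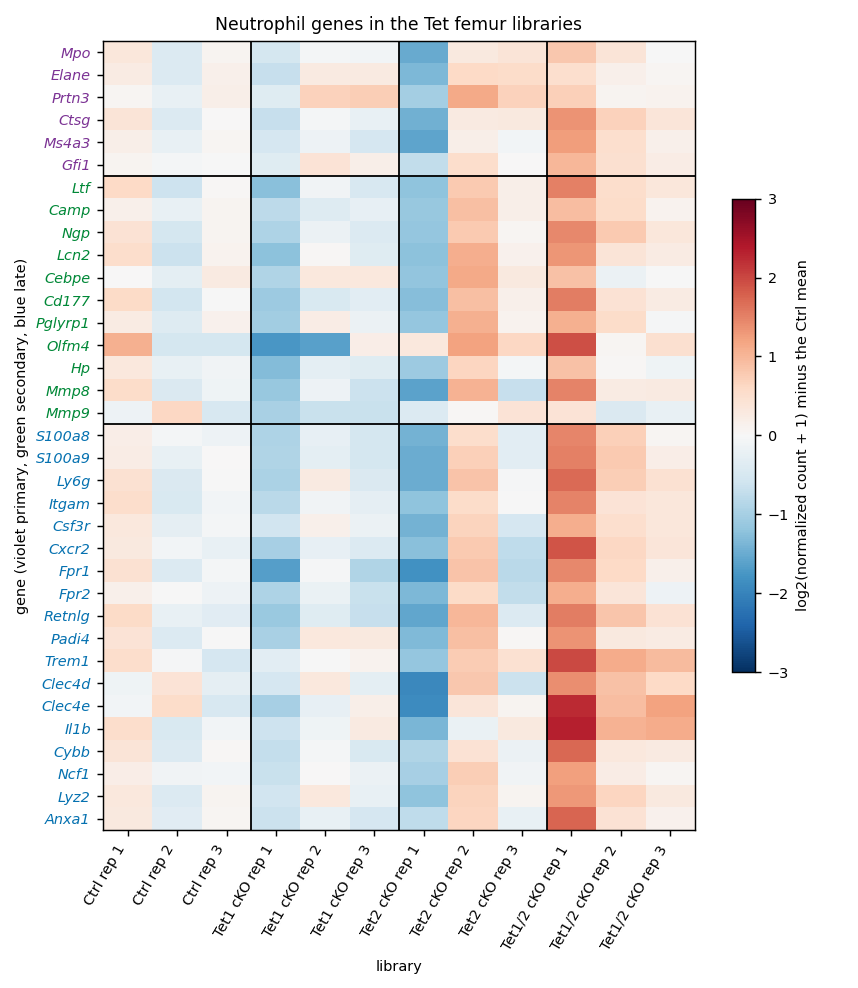
Heat map of the 35 members (rows, by class) in the 12 Tet femur libraries (columns), coloured by log2(normalized count + 1) minus the mean of the 3 Ctrl libraries. Tet2 cKO replicate 1 was low and Tet1/2 cKO replicate 1 high across most members.

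The 3 members with an unadjusted p under 0.05 were late genes, the cytokine Il1b and the receptors Clec4e and Trem1. Il1b was at 1681, 848 and 1097 in Ctrl, 749, 1053 and 1392 in Tet1 cKO, 450, 1018 and 1423 in Tet2 cKO and 5859.9, 2387 and 2530.2 in Tet1/2 cKO, a log2 difference of 1.499 (SE 0.47, adjusted p = 0.723) in Tet1/2 cKO. Clec4e was at 1029.9, 1597 and 773 in Ctrl, 539, 919 and 1221 in Tet1 cKO, 292, 1390.5 and 1150.3 in Tet2 cKO and 5157, 2066 and 2502 in Tet1/2 cKO, with 1.46 (SE 0.57, adjusted p = 0.723). Trem1 was at 1819.7, 1229.7 and 892 in Ctrl, 1007, 1256 and 1349 in Tet1 cKO, 565, 2135 and 1719 in Tet2 cKO and 4942, 2713 and 2425 in Tet1/2 cKO, with 1.34 (SE 0.46, adjusted p = 0.723). In all 3, Tet1/2 cKO libraries were above all Ctrl libraries, as in 8 of 35 members, against 7.37% of all genes. These 3 genes were chosen after their values were seen.

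Calprotectin and the granule genes varied between animals of 1 genotype. S100a8 was at 218665, 182119 and 172405 in Ctrl, 99686, 159453 and 132165 in Tet1 cKO, 71084, 272292 and 151562 in Tet2 cKO and 523490, 314373 and 199465 in Tet1/2 cKO. S100a9 was at 384047, 283432 and 330221 in Ctrl, 176002, 268400 and 229971 in Tet1 cKO, 117520, 541643 and 266359 in Tet2 cKO and 946136, 569875 and 380470 in Tet1/2 cKO. For both, Tet1/2 cKO replicate 1 was the highest and Tet2 cKO replicate 1 the lowest of the 12 libraries. The log2 differences in Tet1/2 cKO were 0.75 (SE 0.56, adjusted p = 0.723) and 0.84 (SE 0.67, adjusted p = 0.730).

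Among the secondary genes Camp was at 98950.3, 75823 and 94436 in Ctrl, 51422, 67951 and 75612 in Tet1 cKO, 40553, 165603 and 101355 in Tet2 cKO and 169108, 130027 and 95812 in Tet1/2 cKO. Ngp was at 279403, 143655 and 216446 in Ctrl, 108054, 182497 and 154461 in Tet1 cKO, 92043, 355339 and 212812 in Tet2 cKO and 557716, 355917 and 261518 in Tet1/2 cKO. In Tet1/2 cKO their log2 differences were 0.52 (SE 0.48, adjusted p = 0.747) and 0.86 (SE 0.59, adjusted p = 0.723), and their groups overlapped. The primary gene Elane was at 16162, 10239.5 and 14929 in Ctrl, 8352, 16389 and 16288 in Tet1 cKO, 5293, 20470.3 and 19726 in Tet2 cKO and 19062, 15111 and 13975 in Tet1/2 cKO. Prtn3 was at 8927, 7351 and 9667 in Ctrl, 6650.3, 13980.5 and 14288 in Tet1 cKO, 4257, 18770.2 and 13979 in Tet2 cKO and 14172, 9109 and 9227 in Tet1/2 cKO. The median over the class was 0.48 for the primary, 0.65 for the secondary and 0.77 for the late genes, with 0.23 (SE 0.47, adjusted p = 0.876) for Elane and 0.30 (SE 0.49, adjusted p = 0.845) for Prtn3. Ly6g, the surface marker of mouse neutrophils, which only the Tet table lists, was at 2234 ± 680.4 in Ctrl and 4550 ± 2181 in Tet1/2 cKO (SD, n = 3), with 0.97 (SE 0.55, adjusted p = 0.723), and it has close paralogs. Mmp9 was the 1 member below 0, at -0.07. Without Tet1/2 cKO replicate 1, the median over the members fell from 0.74 to 0.33, with 32 of 35 above 0.

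In Tet1 cKO 33 of 35 members were below Ctrl, against 51.1% of all genes, with a median of -0.39. Differences ran from -1.05 for Olfm4 to 0.36 for Prtn3, and in 8 members the groups did not overlap, against 3.54% of all genes. Only 2 genes of the whole table passed (0.0119%), neither of them a member. Without Tet1 cKO replicate 1, 25 of 35 members were below Ctrl, with a median of -0.18. In Tet2 cKO 29 of 35 were below Ctrl, against 51.7%, with a median of -0.17, and again 2 genes passed (0.0119%). This direction rested on Tet2 cKO replicate 1, without which 34 of 35 members were above 0 with a median of 0.29, and edgeR and DESeq2 put 15 and 19 of 35 below 0. In markers of other tissues this library had the highest sums of the 12, at 1359910 normalized counts for skeletal muscle genes and 48420.4 for adipocyte genes, and Tet1 cKO replicate 1 had 1041950 for skeletal muscle, against 107656 to 473088 in Ctrl. Tet2 cKO replicate 2 was above Ctrl in skeletal muscle too, at 623342, but its S100a9 of 541643 was also above all Ctrl libraries. The part of these tissues in the neutrophil values was not tested. The 3 knockout groups share the Ctrl libraries. At an unadjusted p under 0.05 there were 382 genes, of them 1 member, in Tet1 cKO, and 368 genes and no member in Tet2 cKO.

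Lists of other cells are given beside these values. In Tet1/2 cKO all 22 other neutrophil genes were above 0 (median 0.67), and below 0 were all 9 osteoclast genes (median -1.10), all 8 skeletal muscle genes (-3.87), 10 of 12 osteoblast and osteocyte genes (-1.17) and 7 of 8 adipocyte genes (-1.06), with none called. Also below 0 were 10 of 11 B-cell precursor genes (-0.36) and 8 of 12 monocyte and macrophage genes (-0.20). Above 0 were 9 of 11 erythroid genes (0.33) and 7 of 11 eosinophil, basophil and mast cell genes (0.26), with none of these called. Monocyte and macrophage genes summed to 47002 to 56675 normalized counts in Ctrl and 47183 to 74698 in Tet1/2 cKO, and skeletal muscle genes to 107656 to 473088 and 2927 to 397364. Their part in the neutrophil values was not tested.

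5hmC, the oxidized form of methylated cytosine that the TET enzymes make, was given as 1 pooled peak list per group, so its values have no replicate error. Bases covered by peaks were counted over each gene and 5 kb upstream. From Ctrl to Tet1/2 cKO femurs 26 of 35 members (74.3%) were covered less and 0 more, close to the 74.2% of all protein-coding genes that were covered less. All peaks together covered 273 Mb in Ctrl and 123 Mb in Tet1/2 cKO. Ltf (mm10, chr9:111019271-111042767) had the most covered bases of the members in Ctrl, 15488 in 10 peaks, and 3005 in 4 peaks in Tet1/2 cKO. Prtn3 went from 7005 to 1194 bases, Ncf1 from 11098 to 5418, and Mpo, Camp, Ngp and Lyz2 lost the peaks they had, 2501, 1906, 2888 and 1911 bases.

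**Figure D5:**
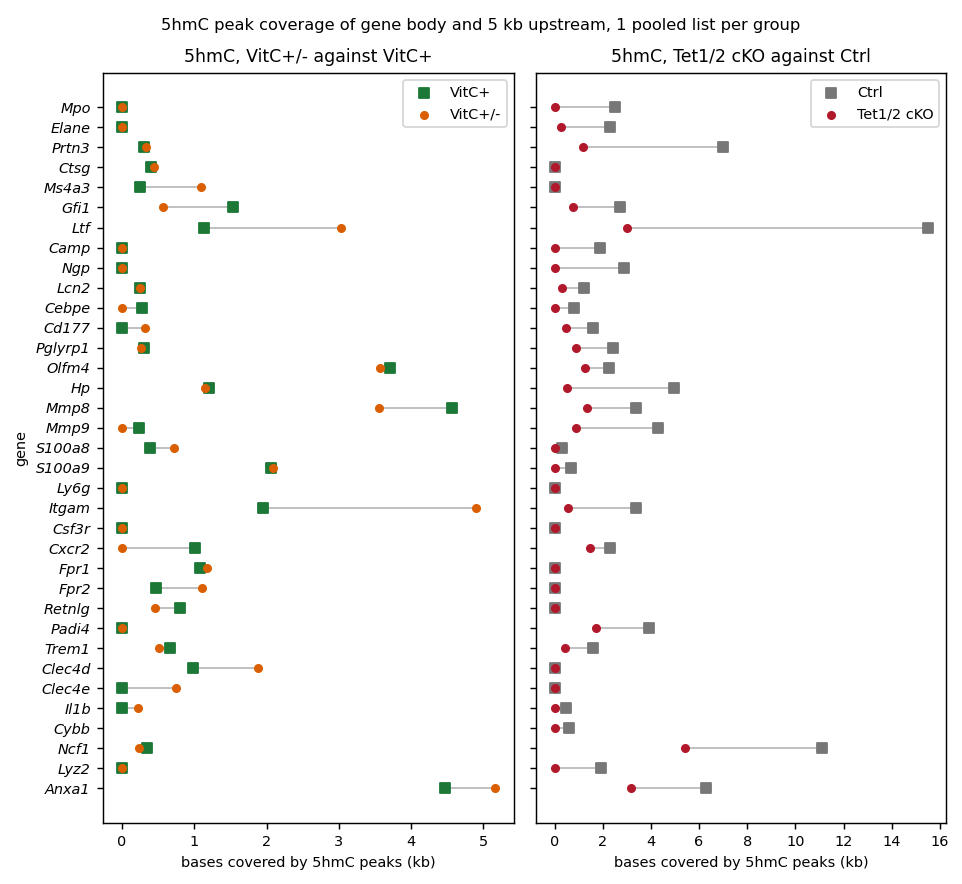
Bases covered by 5hmC peaks (kb) at each member in the pooled femur peak lists of VitC+ and VitC+/- (left) and of Ctrl and Tet1/2 cKO (right); Cybb on chromosome X has no value on the left. Ctrl exceeds Tet1/2 cKO at 26 members, and on the left Ltf and Itgam are covered more in VitC+/-.

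Between the VitC femurs the members did not lose 5hmC coverage as a group. Of 34 members on the chromosomes of these lists, 11 (32.4%) were covered less in VitC+/- than in VitC+ and 15 (44.1%) more, while 50.6% of all protein-coding genes were covered less and 32.7% more. Within 30 kb of the start, 24 of 34 members were covered more, as were 8353 of 20780 protein-coding genes. Ltf, whose transcript fell most, had 1138 covered bases in VitC+ and 3030 in VitC+/-, and Itgam 1945 and 4892. Cxcr2 had 1008 and 0, Mmp8 4568 and 3557, and Fpr2 475 and 1103, so members that fell together in expression went both ways. Both lists were spread evenly: on the autosomes VitC+ had 4 and VitC+/- 3 stretches of over 500 kb with no peak. The Ctrl and Tet1/2 cKO lists had 369 and 486 such stretches. The part of this spread in the values of single genes was not tested.

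MC3T3-E1 cells, a mouse pre-osteoblast line that is not of the blood lineage, show the same genes where neutrophils are absent. With VitC, 21 of 35 members (60%) had fewer bases in 5hmC peaks than without it, against 33.7% of all genes. Within 30 kb of the start, 18 members (51.4%) were covered less and 16 more, against 41.6% and 57.6% of all genes. The 2 lists differ in spread: on the autosomes the list with VitC had 615 stretches of over 500 kb with no peak, 707 Mb in all, and the list without VitC had 0. The part of this spread in the count was not tested. For H3K27me3, a mark of Polycomb repression, 21 of 35 members (60%) held a peak with VitC, against 35.7% of all genes, and 18 were covered less than without VitC, against 34.9%. Only a gene with a peak without VitC can be covered less. Such a peak was held by 21 members and 8635 of 21911 genes, of which 18 members and 7636 genes were covered less. Padi4 had the most covered bases of the members without VitC, 26560 in 6 peaks, and 8645 in 9 peaks with VitC. H3K9me3, a mark of heterochromatin, covered 7 members less, against 23.1% of all genes, and 27 members equally. The H3K27me3 peaks covered 233 Mb without and 145 Mb with VitC, and at a −log10 q of at least 5 no member held a peak of either histone mark. Few of all genes did at that threshold: 2.40% without and 0.429% with VitC for H3K27me3, and 2.04% and 3.91% for H3K9me3. The culture time of the cells used for the histone marks is not clear from the sources used here. It may differ from that of the cells used for 5hmC.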

How the data were processed

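Femur RNA was sequenced from 9 VitC and 12 Tet libraries, 3 per group, each from a separate animal, and aligned to mm10 with STAR 2.6.0b-1 and counted with featureCounts 1.6.3, as named in the submitters' processing notes. The authors deposited RPKM per library for the VitC femurs; the step and annotation that gave RPKM are not given in the sources used here. For the Tet femurs the authors deposited a signal of gene counts divided by the DESeq2 size factor. Peak lists with −log10 q were deposited by the authors from BWA 0.7.15.1 and MACS2 2.1.1.20160309.6, 1 list per group. Entries that shared a gene name in the VitC table numbered 69, and none was a member.

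RPKM were scaled by median-of-ratios factors, kept at 1 RPKM or more in 3 libraries, and fitted as log2(RPKM + 0.5) over 9 libraries. Normalized counts of 10 or more in 3 libraries were fitted as log2(value + 1) over 12 libraries. Both used limma 3.58.1 with an intensity trend in R 4.3.3 and Benjamini-Hochberg adjustment. Fold changes are on these log2 scales and understate the change of low genes. Whole reads within 0.01 of a whole number were recovered for 100% of the values in 11 Tet libraries and tested with edgeR 4.0.16 and DESeq2 1.42.0. Depth of the VitC libraries was estimated from steps in low values. Scripts were tested on simulated data.

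The members and gene lists were chosen with earlier results of these data known. Values in every library are given for members past the threshold in VitC+/- against VitC+ or in a Tet comparison, for the 2 most abundant of each class by mean RPKM, and for members called against the majority direction. Alternatives changed the scaling, pseudocount, filter, trend, samples and block, and the peak window and threshold. Results for 2 genes of the other lists are not reported here.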

Additional observations from a re-analysis of the deposited data

How the results depend on the processing

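Of the alternatives run for VitC+/- against VitC+, the number of members called lower was 5 with no filter on low values and 3 to 16 when libraries were left out, against 10, and 7 to 14 under the other settings. Against WT it was 14 to 32 when libraries were left out, against 28, and the lowest count came without WT replicate 3 and VitC+ replicate 1 together, a choice made after seeing the data. The counts over all genes moved as well. Against VitC+ they were 829 with no filter, 169 to 1227 with libraries left out and 403 to 1206 under the other settings, where the main fit had 946. Against WT they were 829 to 2141 with libraries left out, where the main fit had 2003. Between WT and VitC+ the number called in either direction was 0 to 1 with libraries left out. The deviations of same-numbered libraries correlated at -0.19 to 0.46 in the VitC femurs, with 4 of 9 pairs over 0.1, and at -0.57 to 0.53 in the Tet femurs, with 6 of 18 pairs over 0.1. All 3 pairs of Tet1 cKO and Tet2 cKO were positive (0.53, 0.15 and 0.52), but in no compared pair of groups were all 3 over 0.1, so replicate numbers were not taken as pairing. With the replicate block 14, 31 and 6 members were called lower in VitC+/- than in VitC+, lower than in WT, and in either direction between WT and VitC+, and 0 in each Tet comparison. Over all genes the block gave 1206 lower than in VitC+ and 2228 lower than in WT. Between WT and VitC+ it gave 590 lower and 184 higher. No value changed sign past the threshold. At a −log10 q of at least 5, 0 members were covered less by H3K27me3 and 0 by H3K9me3, against 2.30% and 1.14% of all genes. Within 30 kb of the start, 15 (42.9%) were covered less by H3K9me3, against 7, and so were 40.4% of all genes. With RPKM as deposited the median of all genes moved to 0.13 in VitC+/- against VitC+, and that of the members was -0.78. The 3 animals per group, flushed whole femurs and 1 peak list per group limit the precision, and WT replicate 1 was the shallowest library.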
